A study of Mus musculus with 9 samples.

Results

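The heat shock genes described here are 10 genes of the cytosolic and mitochondrial stress response in mouse lung, namely Hspa1a, Hspa1b, Hsph1, Dnajb1, Hsp90aa1, Hsp90ab1, Hspb1, Hspd1, Hspe1 and Hsf1. They were taken by gene name from the gene table, where each name had 1 identifier, and all 10 of the 10 were found among 55851 genes. Total lung cells of female C57BL/6J mice gave 9 RNA-seq libraries in 3 groups of 3: wild-type after a saline challenge (WT PBS), wild-type after ovalbumin (WT OVA), and animals lacking DJ-1 after ovalbumin (DJ-1 KO OVA, called the knockout here). Ovalbumin is an egg protein used as an allergen in mouse models of asthma, and DJ-1, the product of Park7, has been linked to the handling of oxidative stress. All samples carried a time label of 7 weeks. The kind of knockout allele was not given in the sources used here, and a knockout group given saline was not analysed here, so genotype was compared under ovalbumin only, and the knockout differs from WT PBS in both genotype and challenge. The labels do not say that each library was 1 mouse, so p-values measure the spread between libraries, which may be technical. The WT OVA libraries served as the treated group in one comparison and as the control group in another, and WT PBS as the control in 2, so the comparisons are not independent of each other.

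Heat shock proteins are chaperones that help other proteins to fold, keep unfolded ones from clumping and hand damaged ones on for breakdown. The transcription factor HSF1, encoded by Hsf1, is held inactive in unstressed cells and, on protein damage, binds repeated short units of the letters nGAAn upstream of chaperone genes. Inducible Hsp70 proteins work in a cycle with J proteins, which deliver clients, and nucleotide exchange factors, which release them. Hsp90 takes over partly folded clients such as kinases and steroid receptors, and the Hsp60 and Hsp10 pair folds proteins inside mitochondria.

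The sequence upstream of the start was looked up in RefSeq (GRCm38.p6), where 7 of the 10 genes matched. Hsp90aa1, Hsp90ab1 and Hsf1 were not among them. A pair of heat shock units facing each other (GAANNTTC or TTCNNGAA, which read the same on both strands and can overlap where units follow each other) lay within 250 bases before at least 1 listed start in 6 of the 7. Among 27025 genes with such a window, 14.5% held a pair by the same count. Hsph1, Hspd1 and Dnajb1 have 2 listed starts each, and the pair was found before both for Hsph1, before 1 for Hspd1 and before none for Dnajb1. Below, the last 120 bases before the start of Hspa1a and Hspa1b are shown because these 2 genes are near copies of each other, and that of Hspb1 because it holds 2 pairs. Capitals mark the pairs of units, all sequences read 5′ to 3′ on the strand of the gene, and none of the 3 stretches lies inside its gene as the deposited table delimits it. The stretches are chr17:34972157-34972276 (minus strand), chr17:34959239-34959358 (minus strand) and chr5:135887799-135887918 (plus strand).
Hspa1a: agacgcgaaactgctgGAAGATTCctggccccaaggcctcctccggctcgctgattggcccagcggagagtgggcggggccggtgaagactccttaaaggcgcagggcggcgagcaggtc
Hspa1b: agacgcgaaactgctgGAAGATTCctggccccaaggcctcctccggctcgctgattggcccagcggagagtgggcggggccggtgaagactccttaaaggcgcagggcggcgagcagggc
Hspb1: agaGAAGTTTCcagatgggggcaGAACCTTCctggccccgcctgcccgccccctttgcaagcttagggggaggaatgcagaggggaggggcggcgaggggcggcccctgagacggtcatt
Over the 250 bases before the start, Hspa1a and Hspa1b matched at 247 and differed at 3, with 1 of these in the last 120. The pair in both genes lay 104 to 97 bases before the start.

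For Hsph1, Hspd1 and Hspe1 a stretch of 30 bases around the units is shown, because these bases lie, wholly or in part, inside the span that the deposited table gives to Hsph1 or Hspd1. They are chr5:149636351-149636380 (minus strand) for Hsph1 and chr1:55088053-55088082 for the other pair, read on the minus strand for Hspd1 and on the plus strand for Hspe1.
Hsph1: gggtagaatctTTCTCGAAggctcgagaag
Hspd1: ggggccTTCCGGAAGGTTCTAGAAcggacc
Hspe1: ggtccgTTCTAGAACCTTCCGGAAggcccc
Both lines of the last pair show the same DNA, which lies between the Hspe1 start at 55088148 and the Hspd1 start at 55087932, 216 bases apart. RefSeq also lists an Hspd1 start at 55088243, where the gene begins in the deposited table too. That start lies inside Hspe1, and the 250 bases before it hold no pair of units. A run of 3 units (GAANNTTC directly followed by NNGAA, on either strand) was present before 2 of the 7 matched genes, these 2, and before 0.514% of all genes with a window. Dnajb1 was the matched gene with no pair in its windows, which says only that these letters are absent there. CCAAT, on either strand, was present before 4 of the 7 and 37.5% of all genes, and TATAAA before 0 of the 7 and 14.3% of all genes.

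Reads recovered from the FPKM values (read counts scaled to gene length and a library factor) numbered 20812192 to 29080130 per library. The factor was not the read total. It was 0.89 (WT OVA 9) to 1.21 (DJ1_KO_OVA_263) times that total, and matched the libraries by the median over genes of their read ratios. Park7 was at 36.7 to 60.5 FPKM in the 6 wild-type libraries and at 3.96 to 7.29 FPKM in the 3 knockout libraries (10.7-fold lower than in WT OVA, limma adjusted p = 0.00019). Surfactant and other alveolar type 2 genes, which mark lung, added up to 25810 to 43240 FPKM in WT PBS, 33500 to 42850 in WT OVA and 6736 to 14350 in the knockout. A gene counted as called when its limma p, adjusted by Benjamini-Hochberg over the 17716 genes tested, was below 0.05, and differences are on the log2(FPKM + 0.5) scale with their standard error (SE).

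Several of the heat shock genes were higher in the knockout. Against WT OVA, Hspa1b, Hsph1 and Hspd1 were called higher in the knockout, by 2.45-fold, 3.56-fold and 1.98-fold. None of the 10 was called lower, though 3 of the differences were below 0 and 7 above. Hspa1b and Hspd1 lost that call when some single libraries were left out, and Hspa1a and Hspa1b summed were not called. Against WT PBS, Hspa1a was called higher as well. The folds there were 2.91 for Hspa1a, 3.99 for Hspa1b, 5.64 for Hsph1 and 2.50 for Hspd1. Ovalbumin in wild-type mice gave no called heat shock gene, although 9 of the 10 differences were above 0. All 10 passed the filter on low values, with 424 to 62124 reads behind each value.

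In numbers, 3 of the 10 were called higher in the knockout against WT OVA, where 5.93% of all tested genes were called higher, 8.24% lower and 14.2% in either direction. Against WT PBS 4 of the 10 were called higher, where 4.07% of all tested genes were called higher, 4.47% lower and 8.54% in either direction. In WT OVA against WT PBS 0 of the 10 were called, and 1 of the 17716 genes, or 0.00564%, was. At an unadjusted limma p under 0.05, Hspa1a and Hsph1 passed in that comparison, 2 of the 10, as did 6.47% of all genes. limma-voom on the recovered reads also called 0 of the 10 there. With libraries scaled to equal FPKM sums, 7 of the 10 were called higher in the knockout against WT OVA, where 25% of all genes were called higher and 3.4% lower and the median of all genes was 0.46. In the FPKM as deposited, the median difference of the 10 was 0.36 for WT OVA against WT PBS and 0.62 for the knockout against WT OVA. It was 0.90 for the knockout against WT PBS. The median of all tested genes was 0.00 in each. The library factors, which match the libraries by their median gene, fix that value near 0, so it is no separate result. Groups did not overlap, with the first-named group higher, for 5 of the 10 genes in WT OVA against WT PBS (7.25% of all genes), 5 in the knockout against WT OVA (18.4%) and 6 in the knockout against WT PBS (12.7%).

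**Figure D1:**
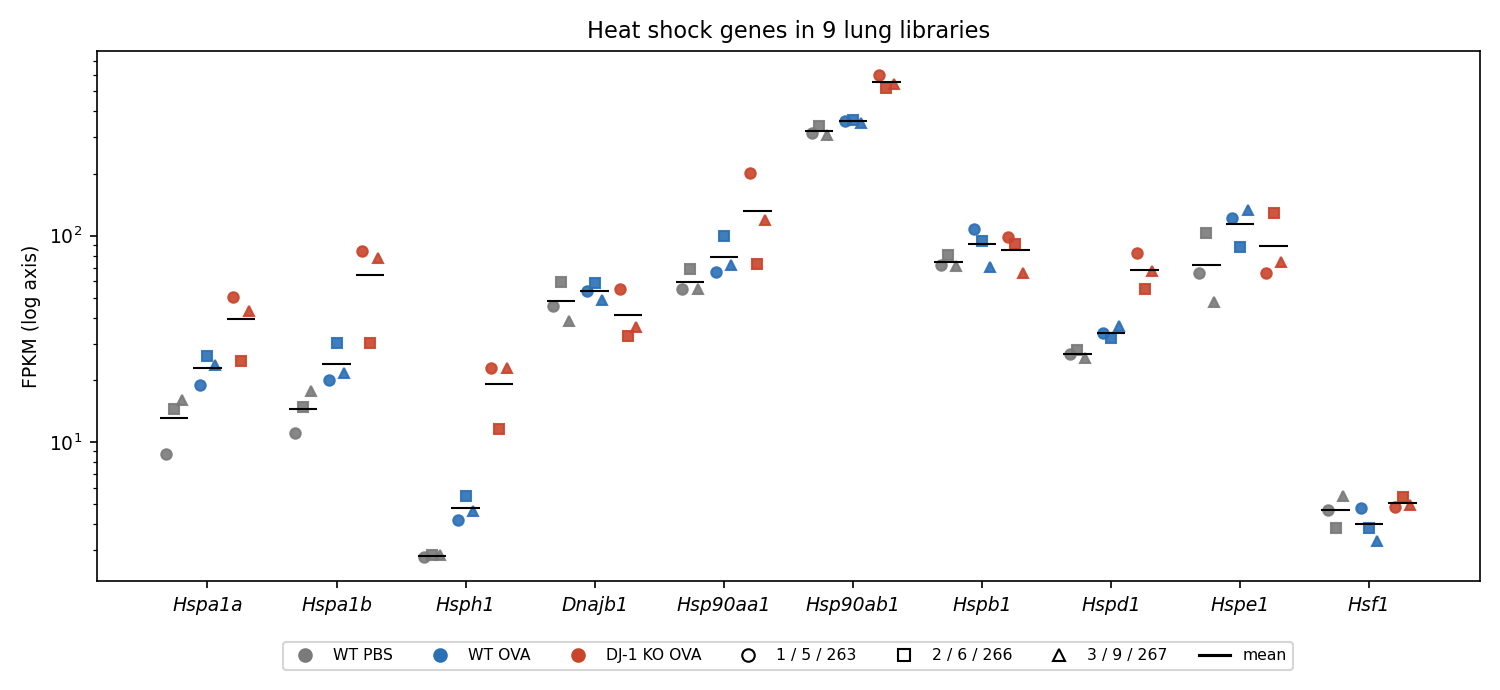
FPKM (log axis) of the 10 heat shock genes in each library, with grey for WT PBS, blue for WT OVA and red for DJ-1 KO OVA, marker shapes for the library numbers and bars for group means. Hsph1 in the knockout libraries, at 11.5 to 22.9 FPKM, lies above all 6 wild-type libraries, while Dnajb1 and Hspe1 overlap between all groups.

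The level of the 10 genes, per base of gene length in the deposited table, spanned a wide range in WT PBS. The order depends on that length, which exceeds the longest annotated coding transcript by unlike amounts. It was 1474 against 774 bases for Hspe1, 7266 against 3802 for Hsph1 and 7099 against 2104 for Hsf1. For Hspa1a both were 2967. Hsp90ab1 was at 321 ± 17.7 FPKM (SD, n = 3) and stood clear of the rest. Hspb1 (74.7 ± 5.42), Hspe1 (72.4 ± 28.5), Hsp90aa1 (59.7 ± 7.74) and Dnajb1 (48.0 ± 10.6) followed. Of these 4, neighbours in the order overlapped between libraries, while Hspb1 and Hsp90aa1 did not. Hspd1 was at 26.7 ± 1.23 FPKM, above Hspa1b at 14.5 ± 3.36 and Hspa1a at 13.1 ± 3.80, which overlapped each other. Hsf1 at 4.67 ± 0.84 FPKM was above Hsph1 at 2.82 ± 0.04. In the knockout that last order was turned, with Hsph1 at 19.1 ± 6.50 FPKM and Hsf1 at 5.06 ± 0.30, and the 2 genes did not overlap.

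Hspa1a and Hspa1b encode the stress-inducible cytosolic Hsp70, the chaperone that binds exposed hydrophobic stretches of client proteins. Both lie on chromosome 17 of GRCm38.p6, on the minus strand, with Hspa1b at 34956436 to 34959238 and Hspa1a at 34969190 to 34972156, 9951 bases apart. Hspa1a was at 8.79, 14.4 and 16.0 FPKM in WT PBS libraries 1, 2 and 3. In WT OVA libraries 5, 6 and 9 it was at 18.9, 26.1 and 23.6 FPKM, and in the knockout libraries DJ1_KO_OVA_263, DJ1_KO_OVA_266 and DJ1_KO_OVA_267 at 50.5, 24.7 and 43.3 FPKM. Every WT OVA library was above every WT PBS library, and DJ1_KO_OVA_266 fell within the range of WT OVA. The difference was 0.81 (SE 0.30, limma adjusted p = 0.73) for WT OVA against WT PBS. It was 0.73 (SE 0.30, adjusted p = 0.12) for the knockout against WT OVA and 1.54 (SE 0.30, adjusted p = 0.015) for the knockout against WT PBS.

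Hspa1b was at 11.0, 14.8 and 17.7 FPKM in WT PBS, at 19.9, 30.02 and 21.7 in WT OVA and at 84.7, 30.1 and 77.9 in the knockout. DJ1_KO_OVA_266 was again the lowest of its group and stood just above the highest WT OVA library, number 6. The difference between the knockout and WT OVA was 1.30 (SE 0.37, limma adjusted p = 0.044). It was no longer called when any 1 of 7 libraries was left out, namely WT PBS 1 or 2, WT OVA 5, 6 or 9, or DJ1_KO_OVA_263 or DJ1_KO_OVA_267, with adjusted p up to 0.16. Against WT PBS the adjusted p of Hspa1b was 0.012, and 0.054 without WT PBS 1 or 0.055 without DJ1_KO_OVA_267. For Hspa1a against WT PBS it was 0.064 and 0.066 without the same libraries.

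The 2 copies are not fully separable by short reads. Of the 100-base windows of the Hspa1a transcript 56.5% also occur in other annotated transcripts, chiefly Hspa1b, and of those of Hspa1b 49.9%. Values of the separate copies are therefore uncertain. With both copies summed, the difference was 0.77 for WT OVA against WT PBS (limma adjusted p = 0.73), 1.06 for the knockout against WT OVA (adjusted p = 0.063) and 1.82 for the knockout against WT PBS (adjusted p = 0.013). The ratio of Hspa1b to Hspa1a was 1.26, 1.02 and 1.11 in WT PBS, 1.05, 1.15 and 0.921 in WT OVA, and 1.68, 1.22 and 1.80 in the knockout. All knockout libraries were above all WT OVA libraries, and WT PBS 1 was above the lowest of them. Against WT OVA the ratio was 1.49-fold higher (exact two-sided permutation p = 0.1, the smallest that 3 against 3 allows, adjusted p = 0.3 over 6 ratio comparisons).

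Hsph1 encodes Hsp110, a nucleotide exchange factor that resets Hsp70 and helps it to take clumped proteins apart. The gene lies on chromosome 5 at 149614287 to 149636376, minus strand. It was at 2.76, 2.84 and 2.84 FPKM in WT PBS, at 4.21, 5.50 and 4.64 in WT OVA and at 22.9, 11.5 and 22.7 in the knockout. No pair of groups overlapped, and the WT PBS libraries lay close together. Hsph1 had the largest difference of the 10 genes, 1.83 (SE 0.26, limma adjusted p = 0.0045) against WT OVA and 2.50 (SE 0.26, adjusted p = 0.00064) against WT PBS. It was called in both with any 1 library left out, with adjusted p up to 0.0255 against WT OVA. For WT OVA against WT PBS its difference was 0.66 (SE 0.26, adjusted p = 0.73).

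Dnajb1 encodes Hsp40, the J protein that delivers clients to Hsp70 and is itself a classical heat shock gene. The gene lies on chromosome 8 at 83608193 to 83612653, plus strand. It was at 45.6, 59.5 and 38.8 FPKM in WT PBS, at 54.0, 58.7 and 48.9 in WT OVA and at 54.9, 32.8 and 35.9 in the knockout. All 3 groups overlapped. The difference of the knockout from WT OVA was -0.42 (SE 0.25, 95% interval -0.96 to 0.13, limma adjusted p = 0.25), so a rise as large as that of Hspa1b lay outside the interval. With libraries scaled to equal FPKM sums that difference became 0.20, where the median of all genes moved by 0.46.

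Hsp90aa1 and Hsp90ab1 encode the inducible and the constitutive form of cytosolic Hsp90, on chromosome 12 at 110690605 to 110702728 and on chromosome 17 at 45567775 to 45573271, both on the minus strand. Hsp90aa1 was at 55.2, 68.7 and 55.4 FPKM in WT PBS, at 66.3, 99.4 and 72.0 in WT OVA and at 202, 72.7 and 119 in the knockout. DJ1_KO_OVA_263 stood far above the others, and the 2 ovalbumin groups overlapped. The difference was 0.62 (SE 0.34, limma adjusted p = 0.21) against WT OVA and 1.01 (SE 0.34, adjusted p = 0.092) against WT PBS. Without DJ1_KO_OVA_266 these became 0.98 (adjusted p = 0.027) and 1.37 (adjusted p = 0.012), both then called. Without DJ1_KO_OVA_263 they became 0.25 (adjusted p = 0.57) and 0.64, neither of them called. Other annotated transcripts, chiefly Gm12346, hold 47.5% of its 100-base windows, so that its reads may be shared with them.

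Hsp90ab1 was at 316, 340 and 306 FPKM in WT PBS, at 360, 364 and 353 in WT OVA and at 602, 519 and 541 in the knockout. No groups overlapped, and the spread within each was small. The difference was 0.62 (SE 0.23, limma adjusted p = 0.082) against WT OVA, 0.79 (SE 0.23, adjusted p = 0.058) against WT PBS and 0.16 (SE 0.23, adjusted p = 0.85) for WT OVA against WT PBS. It missed the threshold in all 3. Without DJ1_KO_OVA_266 it was called against WT OVA (adjusted p = 0.041) and against WT PBS (adjusted p = 0.027). None of its 100-base windows occurs in another annotated transcript.

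**Figure D2:**
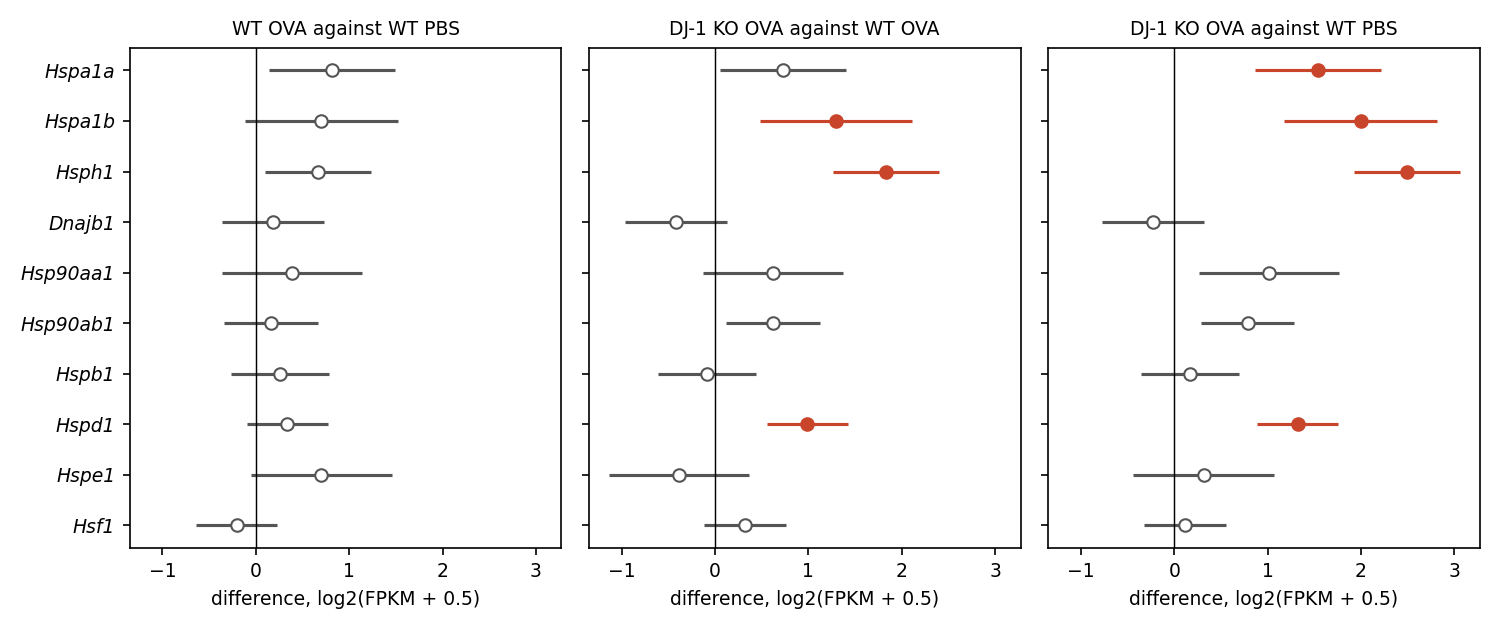
Difference of each heat shock gene on the log2(FPKM + 0.5) scale in the 3 comparisons, with 95% intervals from limma and filled red symbols where the adjusted p was below 0.05. Hsph1 has the largest difference in both knockout panels (1.83 and 2.50), and no symbol is filled in the left panel.

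Hspb1 encodes Hsp27 (Hsp25 in mice), a small heat shock protein that holds unfolding proteins without using ATP. The gene lies on chromosome 5 at 135887919 to 135889563, plus strand. It was at 72.1, 80.9 and 71.0 FPKM in WT PBS, at 108, 94.2 and 70.1 in WT OVA and at 98.6, 91.0 and 65.9 in the knockout. Each of the ovalbumin groups held 1 library below all of WT PBS. The difference of the knockout from WT OVA was -0.09 (SE 0.24, 95% interval -0.61 to 0.44, limma adjusted p = 0.82), and it turned to 0.53 with equal FPKM sums and to 0.29 with quantile normalization. The pseudogene Hsp25-ps1 holds 42.7% of the 100-base windows of Hspb1.

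Hspd1 encodes Hsp60 and Hspe1 encodes Hsp10, the barrel and the lid of the mitochondrial folding chamber. They lie side by side on chromosome 1, Hspd1 at 55077835 to 55088243 on the minus strand and Hspe1 at 55088132 to 55091307 on the plus strand, and overlap by 112 bases in the deposited table. Hspd1 was at 26.8, 27.9 and 25.4 FPKM in WT PBS, at 33.6, 31.7 and 36.4 in WT OVA and at 82.4, 55.1 and 67.7 in the knockout. No groups overlapped. The difference was 0.99 (SE 0.20, limma adjusted p = 0.016) against WT OVA, 1.32 (SE 0.20, adjusted p = 0.0048) against WT PBS, and 0.34 (SE 0.20, adjusted p = 0.73) for WT OVA against WT PBS. Against WT OVA the adjusted p was 0.056 without WT OVA 5, 0.065 without WT OVA 6, 0.052 without WT OVA 9 and 0.066 without DJ1_KO_OVA_267.

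Hspe1 was at 66.0, 103 and 47.6 FPKM in WT PBS, at 121, 87.7 and 133 in WT OVA and at 65.8, 128 and 74.4 in the knockout. The groups overlapped in every comparison, and within the knockout the library with the lowest Hspd1, DJ1_KO_OVA_266, had the highest Hspe1. Other transcripts hold 26.9% of the 100-base windows of Hspd1, chiefly the pseudogene Hspd1-ps3, and 22.4% of those of Hspe1. The difference of Hspe1 between the knockout and WT OVA was -0.39 (SE 0.34, 95% interval -1.14 to 0.37, limma adjusted p = 0.43), 0.23 with equal FPKM sums. The ratio of Hspe1 to Hspd1 was 2.47, 3.71 and 1.87 in WT PBS, 3.61, 2.76 and 3.65 in WT OVA and 0.799, 2.33 and 1.10 in the knockout. The knockout libraries were all below WT OVA, by 2.61-fold on average (exact two-sided permutation p = 0.1, the smallest possible, adjusted p = 0.3). Reads from the 112 shared bases cannot be assigned without knowing the strand, and the strand setting of the counting was not given in the sources used here.

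**Figure D3:**
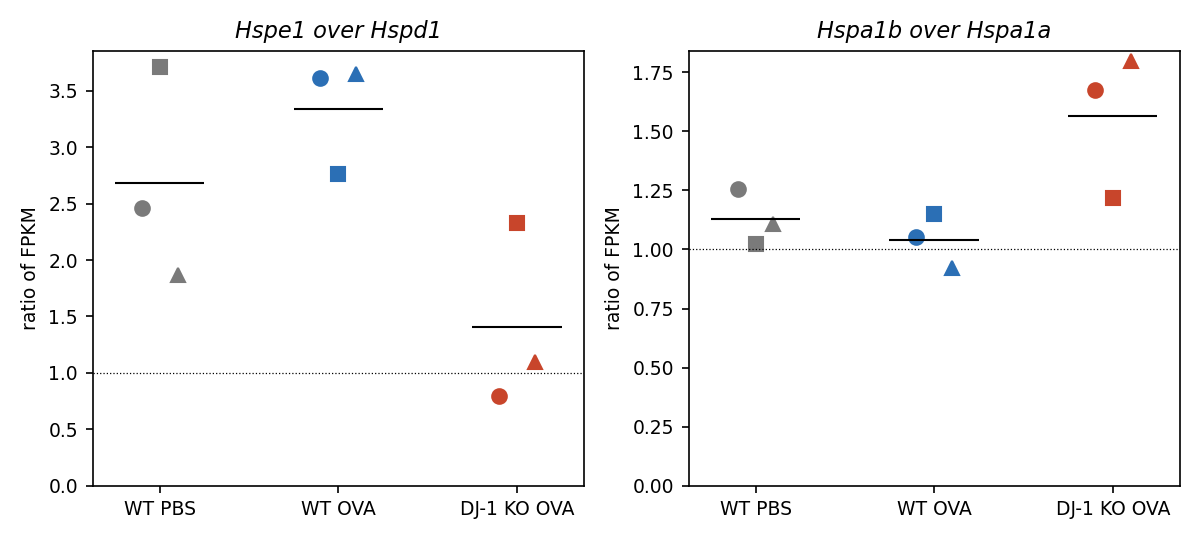
Ratio of FPKM within each library for the mitochondrial pair Hspe1 and Hspd1 (left) and for the Hsp70 copies Hspa1b and Hspa1a (right), with points for libraries, bars for group means and a dotted line at equal FPKM. The knockout libraries span 0.799 to 2.33 on the left and 1.22 to 1.80 on the right, in both cases apart from WT OVA.

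Hsf1 encodes the transcription factor of the heat shock response and lies on chromosome 15 at 76477422 to 76501913, plus strand. It was at 4.69, 3.82 and 5.50 FPKM in WT PBS, at 4.81, 3.83 and 3.31 in WT OVA and at 4.81, 5.39 and 4.96 in the knockout. The lowest knockout library and the highest WT OVA library were within rounding of each other, and Hsf1 counts among the 5 genes without overlap in that comparison by this margin. The difference was 0.32 (SE 0.20, limma adjusted p = 0.26) against WT OVA and 0.12 (SE 0.20, adjusted p = 0.74) against WT PBS. The RNA level of Hsf1 does not measure the activity of the protein.

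Gene length moved with the genotype difference. The median difference of the knockout from WT OVA was -0.39 for tested genes of up to 1000 bases, -0.36 for 1000 to 2000, -0.18 for 2000 to 3000, -0.01 for 3000 to 4000, 0.13 for 4000 to 6000 and 0.36 above 6000. By the length in the deposited table, Hspb1 (1031 bases) and Hspe1 (1474) are the shortest of the 10 and Hsph1 (7266) and Hsf1 (7099) the longest. Hspe1 and Hsf1 had values near the median of their length, and Hsph1, Hspa1b and Hspd1 lay above it by more than 1 log2 unit. With the length trend removed, the difference was 1.55 for Hsph1, 1.14 for Hspd1, 1.42 for Hspa1b and 0.71 for Hsp90ab1, with limma adjusted p of 0.004, 0.014, 0.051 and 0.042. The part of RNA length or quality in these values was not tested further.

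**Figure D4:**
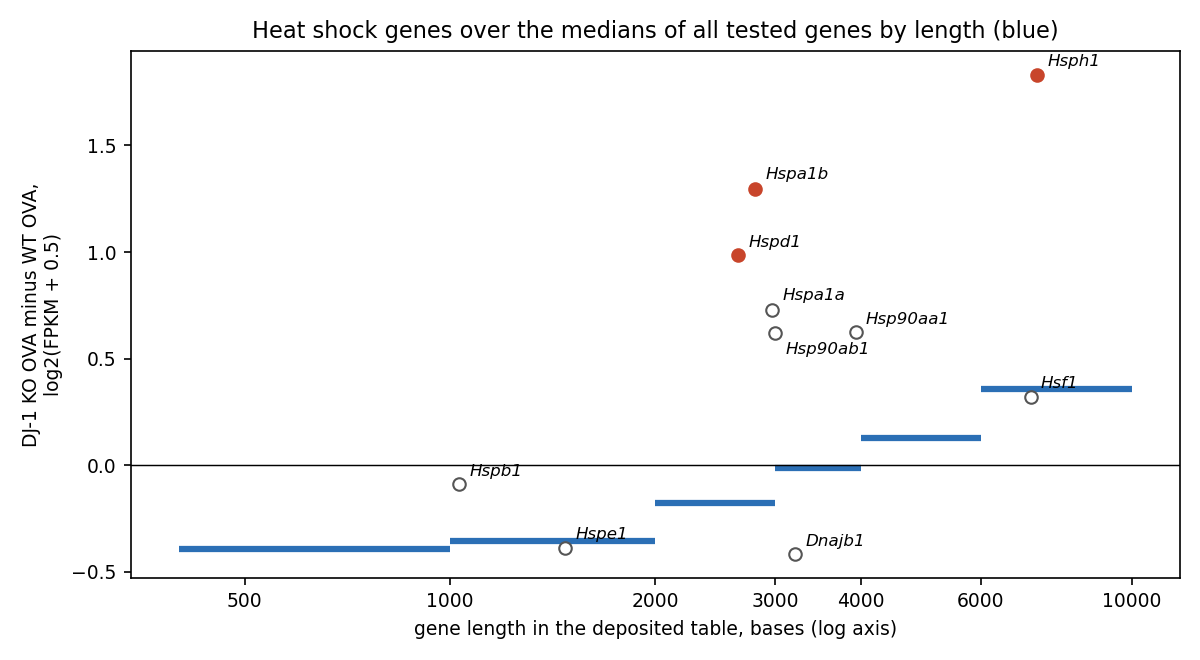
Difference of the knockout from WT OVA on the log2(FPKM + 0.5) scale against gene length (log axis, bases), with heat shock genes as points (filled red where the limma adjusted p was below 0.05) and the median of all tested genes in each of 6 length classes as blue bars. The blue medians climb from -0.39 to 0.36, and Hspe1 (-0.39) and Hsf1 (0.32) lie close to them.

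Several lists of marker genes differed in the knockout libraries too. Calls given here are against WT OVA, where 5.93% of all genes were called higher and 8.24% lower. Cell cycle genes, of which 13 of 16 were called higher than in WT OVA, added up to 93.3 to 125 FPKM in WT PBS, 93.4 to 139 in WT OVA and 193 to 378 in the knockout, with the maximum in DJ1_KO_OVA_263. T cell markers (4 of 10 higher) added up to 195 to 348, 207 to 334 and 297 to 1190 FPKM in the same order of groups, again with the maximum in DJ1_KO_OVA_263. Neutrophil markers (8 of 10 lower) added up to 8703 to 24810, 13130 to 19360 and 1448 to 4458 FPKM in that order. Endothelial markers (1 of 10 lower, near the share of all genes) added up to 128 to 194 and 121 to 180 FPKM in the wild-type groups. They added up to 26.2, 184 and 61.2 in DJ1_KO_OVA_263, DJ1_KO_OVA_266 and DJ1_KO_OVA_267, so DJ1_KO_OVA_266 lay within the wild-type range. Alveolar type 2 genes, given above, were called lower in 3 of 10 cases. Fibroblast and matrix genes (5 of 10 higher) added up to 347 to 414 FPKM in WT PBS, 319 to 346 in WT OVA and 615 to 1256 in the knockout. Alveolar macrophage markers (0 of 10 higher, 3 lower) added up to 2283 to 3625, 3471 to 14140 and 10930 to 34010 FPKM in that order. B cell markers (4 of 8 lower) added up to 330 to 387, 291 to 389 and 104 to 247 FPKM. Of the tested alveolar type 1 and ciliated markers 3 of 7 and 3 of 9 were called lower. Club markers (6 tested) and monocyte and interstitial macrophage markers (10 tested) had 1 call in each direction. Eosinophil markers had 1 lower call of 6 and cardiomyocyte markers 1 of 3, while smooth muscle and erythroid markers had none. No marker in these lists was at 0 in all libraries. DJ1_KO_OVA_263 thus held the highest Hspa1a, Hspa1b, Hsph1, Hsp90aa1, Hsp90ab1, Hspd1 and cell cycle values, and DJ1_KO_OVA_266 the lowest of its group for Hspa1a, Hspa1b, Hsph1, Hsp90aa1, Hsp90ab1 and Hspd1. In total lung cells, fewer cells of a type and less RNA per cell cannot be told apart, and the part of cell make-up in the heat shock values was not tested.

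Hsp70 works with a large family of relatives, J proteins and exchange factors. Of 24 such genes outside the 10, 3 were called higher and none lower in the knockout against WT OVA. Among all genes 5.93% rose and 8.24% fell, and the median difference of the 24 was -0.04 (0.02 with quantile normalization). With equal FPKM sums 7 of the 24 were called higher, against 25% of all genes, and the median was 0.51, or 0.05 above that of all genes. Hspa4, an Hsp110 relative, rose from 15.4 ± 0.58 to 28.6 ± 4.79 FPKM (0.86, limma adjusted p = 0.02). Stip1, which joins Hsp70 to Hsp90, rose from 46.2 ± 0.79 to 76.7 ± 3.71 FPKM (0.72, adjusted p = 0.025), and the ribosome-bound J protein Dnajc2 rose by 0.65 (adjusted p = 0.049). Hspa8, the constitutive Hsp70, was at 276 ± 54.8 FPKM with saline, and with ovalbumin at 467 ± 51.5 in wild-type and 523 ± 24.7 in knockout libraries. It was called against WT PBS (0.94, adjusted p = 0.044, up to 0.18 with a library left out) and not against WT OVA (0.17, adjusted p = 0.66). St13 (0.74) and Stip1 (1.14) were the others called higher against WT PBS. Bag3, an exchange factor and HSF1 target, was at 19.5 ± 7.09, 14.4 ± 1.80 and 23.9 ± 5.10 FPKM and was not called.

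Among 12 tested Hsp90 cochaperones 2 were called higher and none lower against WT OVA, with a median of 0.23. Of all genes 5.93% rose and 8.24% fell there. Fkbp5, also a target of the glucocorticoid receptor, rose from 4.19 ± 0.67 to 12.9 ± 4.2 FPKM (1.48, limma adjusted p = 0.014). Ahsa2, of the family that stimulates the Hsp90 ATPase, rose from 1.25 ± 0.02 to 2.54 ± 0.28 FPKM (0.79, adjusted p = 0.027). Against WT PBS 5 of the 12 rose, where 4.07% of all genes did. Among the 5 were Fkbp5 (1.63), Ahsa2 (1.06), Chordc1 (1.00) and Ahsa1 (0.60).

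Among the other small heat shock proteins the calls were on the lower side. Of 8 tested, 4 were called lower against WT OVA and none higher, with a median of -0.49, where 8.24% of all genes were called lower. The 4 were Hspb2 (-1.11), Hspb11 (-1.15), Cryab (-0.95) and Hspb8 (-0.86), with limma adjusted p of 0.013 to 0.049. Hspb11 is listed by its name alone, and whether its product acts as a chaperone was not examined. Cryab, the alpha B crystallin, was at 29.9 ± 6.72 FPKM in WT OVA and 15.6 ± 5.82 in the knockout. With equal FPKM sums none of the 8 was called lower and 1 was called higher, where 3.4% of all genes were called lower and 25% higher. The median was then 0.02, or -0.44 relative to that of all genes. With quantile normalization 2 were called lower, where 1312 of the 17716 genes were. With the length trend removed 1 was called in each direction, where 923 of all genes were called higher and 979 lower. The lengths of these 4 genes, 834 to 2071 bases, fall in the classes whose median was below 0.

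The 11 mitochondrial chaperones and proteases include Hspd1 and Hspe1. With equal FPKM sums 6 of them were called higher and 0 lower against WT OVA, where 25% of all genes were called higher and 3.4% lower. In the FPKM as deposited 2 rose and 1 fell, where 5.93% of all genes rose and 8.24% fell. Beside Hspd1, Hspa9, the mitochondrial Hsp70, rose from 27.2 ± 1.27 to 45.1 ± 6.58 FPKM (0.71, limma adjusted p = 0.03), and Hscb, a J protein of iron-sulfur cluster assembly, fell by 0.85 (adjusted p = 0.049). Of 14 genes of the cytosolic CCT chaperonin and its helper prefoldin, 1 rose, near the 5.93% of all genes, namely the subunit Cct8 (0.73, adjusted p = 0.03). The prefoldin subunits Pfdn5 (-1.91, adjusted p = 0.015) and Pfdn4 (-1.29, adjusted p = 0.038) fell, where 8.24% of all genes did. With equal FPKM sums 6 of these 14 were called higher and 1 lower, against 25% and 3.4% of all genes, and their median was 0.13 relative to that of all genes. Of 3 tested heat shock factors and regulators none was called against WT OVA. Hsbp1, whose product binds HSF1, differed by -0.75 (adjusted p = 0.11), and Hsf4 by -0.43 (adjusted p = 0.22). Hsf4 was lower against WT PBS (-0.95, adjusted p = 0.037), a call that was lost without WT PBS 1, 2 or 3, WT OVA 5, DJ1_KO_OVA_263 or DJ1_KO_OVA_267 (adjusted p up to 0.14).

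Chaperones of the endoplasmic reticulum, which answer to a separate stress pathway, had the largest share of calls among the 7 chaperone groups. Of 14 genes 10 rose and 1 fell against WT OVA, with a median of 1.00, where 5.93% of all genes rose and 8.24% fell. The 4 with the smallest p were Dnajc3 (1.24), Hyou1 (1.54), Hspa5 (1.47) and Pdia4 (1.48), with limma adjusted p of 0.008 to 0.014. Hspa5, the reticulum's Hsp70, was at 153, 134 and 139 FPKM in WT OVA and at 348, 306 and 573 in the knockout. Dnajb9 fell, from 124 ± 5.20 to 70.8 ± 8.44 FPKM (-0.81, adjusted p = 0.041, up to 0.12 with a library left out). Against WT PBS 10 of the 14 were called higher and none lower, where 4.07% of all genes were called higher. The rises were led by Dnajc3 (1.36), Pdia4 (1.82), Creld2 (1.74) and Hspa5 (1.48).

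**Figure D5:**
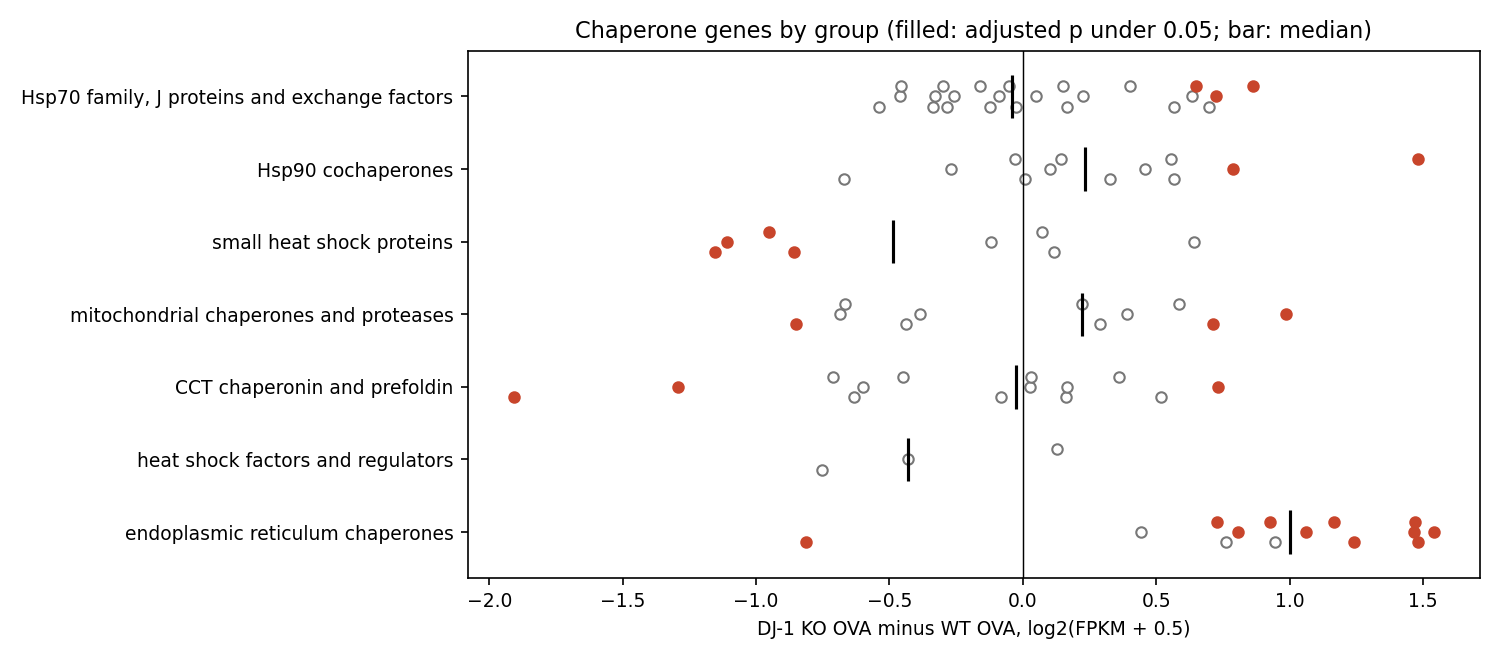
Difference of the knockout from WT OVA on the log2(FPKM + 0.5) scale for each tested gene of 7 chaperone groups, with filled red symbols where the limma adjusted p was below 0.05 and black bars at the median. Endoplasmic reticulum chaperones centre on 1.00 and the small heat shock proteins on -0.49.

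These counts leaned on single libraries, and so did the counts over all genes. With all 9 libraries, 1051 genes were called higher and 1459 lower against WT OVA. Without WT OVA 5, 6 or 9 or DJ1_KO_OVA_267, 237, 140, 159 and 124 genes were called higher in that order. The lower calls were then 375, 311, 316 and 161. Without DJ1_KO_OVA_266 there were 2713 higher and 2970 lower calls. Without WT PBS 1, 2 or 3 the higher calls were 486, 911 and 1031, and the lower calls 785, 1378 and 1466. Without DJ1_KO_OVA_263 there were 672 higher and 604 lower calls. Against WT OVA, 1 of the 10 heat shock genes, Hsph1, was called without WT OVA 5, 6 or 9 or DJ1_KO_OVA_267, and 6 were called without DJ1_KO_OVA_266. Without each of WT OVA 5, 6 and 9 and DJ1_KO_OVA_267, no gene of the Hsp70 group or the mitochondrial group was called, and the endoplasmic reticulum group had 5, 1, 3 and 1 higher calls in that order. The small heat shock proteins then had 1, 0, 1 and 0 lower calls, and 2 without any 1 WT PBS library or DJ1_KO_OVA_263. There was a single call in the Hsp70 group without WT PBS 1, and in the mitochondrial group without WT PBS 1 or DJ1_KO_OVA_263. The CCT and prefoldin group had no higher call and 1, 1, 0 and 0 lower calls without the same 4 libraries. It had no higher and 1 lower call without WT PBS 1 or DJ1_KO_OVA_263. Without DJ1_KO_OVA_266 it had 2 higher and 5 lower calls, where 2713 and 2970 of all genes were called. The Hsp90 cochaperones had 0 or 1 higher calls without WT OVA 5, 6 or 9 or DJ1_KO_OVA_263 or DJ1_KO_OVA_267. Without DJ1_KO_OVA_266 the Hsp70 group and the Hsp90 cochaperones had 5 higher calls each, with 2 and 1 lower calls. The mitochondrial group then had 3 higher and 3 lower calls, the small heat shock proteins 1 higher and 4 lower, and the heat shock factors and regulators 1 lower. Against WT PBS the heat shock genes had 2 calls without WT PBS 1 or DJ1_KO_OVA_267 and 6 without DJ1_KO_OVA_266. Of all genes, 721 were called higher there with all 9 libraries. That count was 200 without WT PBS 1, 230 without WT PBS 2 and 442 without WT PBS 3. It was 486, 579 and 533 without WT OVA 5, 6 and 9 in that order. Without DJ1_KO_OVA_263 it was 783, without DJ1_KO_OVA_267 254 and without DJ1_KO_OVA_266 1894. There the endoplasmic reticulum group had 4 or 5 calls without WT PBS 1, 2 or 3 or DJ1_KO_OVA_267, and the Hsp90 cochaperones had 1 to 3 when any 1 library other than DJ1_KO_OVA_266 was left out. The Hsp70 group there had 1 call without WT PBS 1 or 3 or DJ1_KO_OVA_267 and 7 without DJ1_KO_OVA_266.

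In WT OVA against WT PBS no gene of the 7 chaperone groups was called. The 2 with the smallest p in each group were Hspa8 (0.77) and Dnaja1 (0.59), Chordc1 (0.45) and Sugt1 (0.46), Hspb9 (-0.59) and Hspb11 (0.68), Grpel2 (0.60) and Grpel1 (0.45), Pfdn4 (0.71) and Tcp1 (0.35), Hsf4 (-0.52) and Hsbp1 (0.50), and Dnajb9 (0.70) and Manf (0.75). Their limma adjusted p was 0.73 throughout. Immediate early genes respond to handling as well as to stimuli. In the knockout against WT OVA 3 of 15 were called lower and none higher, where 8.24% of all genes were called lower. Their median was -0.33. With equal FPKM sums it was 0.29, or -0.17 relative to all genes, with no call. With quantile normalization it was 0.33, with 1 lower call, where 1312 of all genes were called lower. None was called without WT OVA 5, WT OVA 6 or DJ1_KO_OVA_267, 1 without WT OVA 9 and 2 without WT PBS 1.

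The genes most like 3 of the members over the 9 libraries were sought among 6613 named genes outside the 10 that averaged 5 FPKM or more, by Pearson's r of log2(FPKM + 0.5), as a description of libraries that share group differences. For Hspa1a they were Seh1l, Golm1, Cyb5b, Me1 and Fam98a (r of 0.954 to 0.938). Those nearest to Hsp90aa1 were Metap2, Acsl4, Hdac2, Xist and Nckap1 (r of 0.977 to 0.942). Hspd1 went with Nde1, Scin, Utp18, Slc16a1 and Sla (r of 0.987 to 0.964).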

How the data were processed

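RNA was sequenced from 9 samples of total lung cells with an Illumina TruSeq library kit. Per the submitters' processing notes, Trimmomatic, HISAT2, HTSeq and the mouse build GRCm38.p6 were used. Their versions, settings and strand mode were not given in the sources used here. The authors deposited FPKM per gene and library. All of the values are whole reads within 0.01 reads once gene length and library factor are undone, so reads could be recovered.

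The heat shock genes and all gene lists were chosen with earlier results of these data known. Genes averaging 0.2 FPKM or more were kept (17716). log2(FPKM + 0.5) was fitted over all 9 libraries with limma 3.58.1 (R 4.3.3) with a trended prior, 6 residual degrees of freedom and Benjamini-Hochberg adjustment over all genes tested. A fold on this scale understates changes of low genes. Ratios were compared by exact permutation of libraries. The code was checked on simulated data.

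Named are the 10 heat shock genes in every library and Park7. From each other chaperone list, the called genes are named, up to 4 of smallest p in each direction, or 2 of smallest p where none was called. Hspa8, Hspa9, Bag3, Hspa5, Hspa4 and Cryab are named whatever their values, and for 3 members the 5 genes most correlated with them.

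Alternatives were other pseudocounts (0.1 and 1), no filter or one at FPKM 1, equal FPKM sums, quantile normalization, a fit of only the 2 groups compared, limma-voom on recovered reads and leaving out each library. Summing Hspa1a with Hspa1b and removing a trend on gene length were chosen after seeing the data.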

Additional observations from a re-analysis of the deposited data

How the results depend on the processing

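No paired analysis was possible because the groups share no library number. The number of heat shock genes called stayed at 0 for WT OVA against WT PBS in all settings. It was 3 for the knockout against WT OVA, and 2 without the filter or with only the 2 groups compared. With equal FPKM sums it was 7, and with a library left out 1 to 6. For the knockout against WT PBS it was 4, and 2 to 6 with a library left out. It was 5 with equal FPKM sums, quantile normalization, limma-voom or the length trend removed, with Hsp90ab1 as the added call each time. Of all genes, 968, 762, 869 and 901 were called higher under these settings in that order, and 721 in the FPKM as deposited. Hspa1b against WT OVA lost its call without the filter (adjusted p = 0.10), with only the 2 groups (0.076) and with quantile normalization (0.0504). Equal FPKM sums moved the median of all genes by 0.46 (knockout against WT OVA), 0.24 (knockout against WT PBS) and -0.22 (WT OVA against WT PBS). Relative to that shift Hsph1 differed by 1.96, Hspa1b by 1.45 and Hspd1 by 1.14 against WT OVA.

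Over all genes, 2510 were called in the knockout against WT OVA (1051 higher, 1459 lower), 5034 with equal sums (4432 higher, 602 lower), 645 without the filter, 1330 with 2 groups, and 285 (without DJ1_KO_OVA_267) to 5683 (without DJ1_KO_OVA_266) with a library left out. Against WT PBS 1513 were called in the knockout, 669 without the filter, 782 with 2 groups, and 443 (without WT PBS 1) to 3888 (without DJ1_KO_OVA_266) with a library left out. In WT OVA against WT PBS the count was 1, 2 without the filter, 0 to 14 (14 without WT OVA 6) with a library left out, and 0 with pseudocount 0.1, the filter at 1, equal sums, quantile normalization, 2 groups, voom or the length trend removed.

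Differences that changed sign were called neither before nor after, and the cause was not tested. For WT OVA against WT PBS, equal sums gave -0.13 for Dnajb1, -0.15 for Hsp90ab1 and -0.054 for Hspb1, and quantile normalization gave -0.15 for Hsp90ab1. For the knockout against WT OVA, equal sums gave 0.20 for Dnajb1, 0.53 for Hspb1, 0.23 for Hspe1 and 0.083 for Hsf4. Hspb1 there was 0.29 with quantile normalization, 0.36 with the length trend removed, and -0.26 to 0.085 with a library left out. Against WT PBS, Dnajb1 was 0.073 with equal sums, and Hsf1 was -0.053 with the length trend removed and -0.0086 to 0.23 with a library left out. Depth limits none of the heat shock genes to fewer than 424 reads in a library.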
